A study of Rattus norvegicus with 24 samples.

Results

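Dorsal root ganglia (DRG) of rats that swam after a contusion of the spinal cord were compared with DRG of uninjured rats. The comparison used 5 CONT SCI + SWIM and 4 No SCI samples, 9 of the 24 samples in the series, chosen by the group named in each label. All animals were female Sprague Dawley rats, 8 to 9 weeks old on arrival, and each sample came from 1 rat. CONT SCI + SWIM rats received a laminectomy and a contusion of 25 g-cm at T2, swam on 5 days a week for 10 weeks from 2.5 weeks after the injury, and were collected at 13.5 weeks. No SCI rats were naïve and un-exercised, and their label gives 11.5 weeks. Both groups were housed in pairs in small cages that restrict walking. Cage mates came from the same group, or, where deaths left an odd number, from injured rats outside the study. Injury with its surgery and postoperative drugs, swimming and collection time therefore changed together and cannot be told apart in this comparison. DRG from T11 to L4 of both sides were pooled within each rat, and polyA RNA was sequenced. The other groups were CONT SCI (contusion without exercise, 6 samples, 11.5 weeks), CONT SCI + SWW (contusion and shallow water walking, 5 samples, 13.5 weeks) and TX SCI (complete transection at T2, 4 samples, 8.5 weeks), and they appear here only as points of reference.

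DRG hold the cell bodies of sensory neurons, wrapped by satellite glia and reached by axons that Schwann cells ensheathe. These neurons carry touch, body position, heat and pain from skin, muscle and organs to the spinal cord. Below a spinal cord injury most of them are not cut, but some classes sprout new branches or become hyperexcitable, and exercise is one treatment used to shape this plasticity. The comparison asks how far the DRG of contused, swim-trained rats lay from the uninjured state. The rows of the matrix carry Ensembl identifiers without gene names. Markers of DRG neurons, of other cell types or of neighbouring tissue were therefore not analysed here, and the tissue label was not checked against them.

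The libraries of CONT SCI + SWIM had a lower median depth than those of No SCI, a difference that missed the threshold after adjustment. Their reads counted on genes summed to between 16086670 and 29709101 (median 25550757), against 29191327 to 33841979 in No SCI, and only 1 CONT SCI + SWIM library, replicate 4, lay within the No SCI range (two-sided exact permutation test, p = 0.0397, 0.159 after Benjamini-Hochberg adjustment over 5 library measures). With every library thinned to 16086670 counts, 16855 to 16958 genes had a count in CONT SCI + SWIM and 16907 to 17127 in No SCI, and the groups overlapped (two-sided exact permutation test, p = 0.127, adjusted 0.159). The 10 most abundant genes held 6.94% to 7.66% of the reads in CONT SCI + SWIM and 7.37% to 8.79% in No SCI. None of these measures differed beyond the spread between samples after adjustment.

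Differences were spread over many genes, and the large differences were mostly falls. Of 15179 genes, 4262 (28.1%) passed an adjusted p of 0.05 in edgeR's quasi-likelihood test, fitted over the 20 samples of the study's exercise set. Of these, 1821 (12.0% of the tested genes) were higher and 2441 (16.1%) lower in CONT SCI + SWIM than in No SCI. In whole ganglia, fewer cells of a type and less RNA per cell cannot be told apart, for a gene that fell as for one that rose. Levels of single samples are given as CPM, read counts scaled to a common library size. For 3165 of the 4262 called genes (74.3%, or 20.9% of the tested genes) the 5 CONT SCI + SWIM samples lay wholly above or wholly below the 4 No SCI samples. Over all tested genes, called or not, 10.7% lay wholly above and 13.3% wholly below. The median log2 fold change over all tested genes was 0.01. With each of the 9 samples left out in turn, 3158 to 4620 genes were called. The count of rises depended most on single No SCI libraries, at 1097 without No SCI replicate 1 and 1022 without No SCI replicate 2, where 2167 and 2136 genes were lower.

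**Figure D1:**
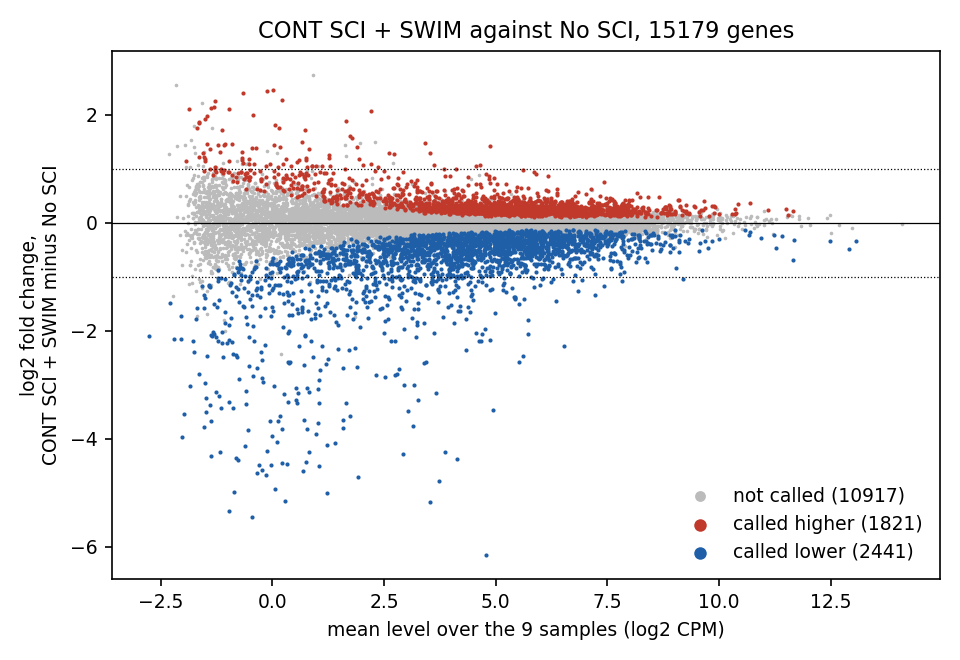
Each point is 1 of 15179 tested genes, with its mean level over the 9 samples (log2 CPM) on the horizontal axis and its log2 fold change, CONT SCI + SWIM minus No SCI, on the vertical axis. Red points were called higher (1821) and blue points lower (2441) at an adjusted p under 0.05, the dotted lines mark a 2-fold difference, and the falls reach far lower than the rises reach up.

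The genes that rose did so by small steps, and the genes that fell covered a much wider range. The called rises had a median log2 fold change of 0.27, with the middle of their distribution (25th to 75th percentile) between 0.20 and 0.40. The called falls had a median of -0.52, with the same percentiles at -0.82 and -0.34. A difference of at least 2-fold was reached by 536 genes (3.53% of those tested), 85 higher (0.560%) and 451 lower (2.97%). With a mean of at least 1 CPM required of a gene, 346 genes differed by at least 2-fold, 36 higher and 310 lower. At 4-fold or more the counts were 10 higher and 157 lower. Below a log2 fold change of 0.25 the balance was the other way round, with 763 genes higher and 282 lower. With libraries scaled by their totals alone, 2126 genes were called higher and 2290 lower over all sizes. Left out in turn, the 9 samples gave between 480 and 590 genes with a 2-fold difference, of which 79.4% to 87.5% were lower.

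**Figure D2:**
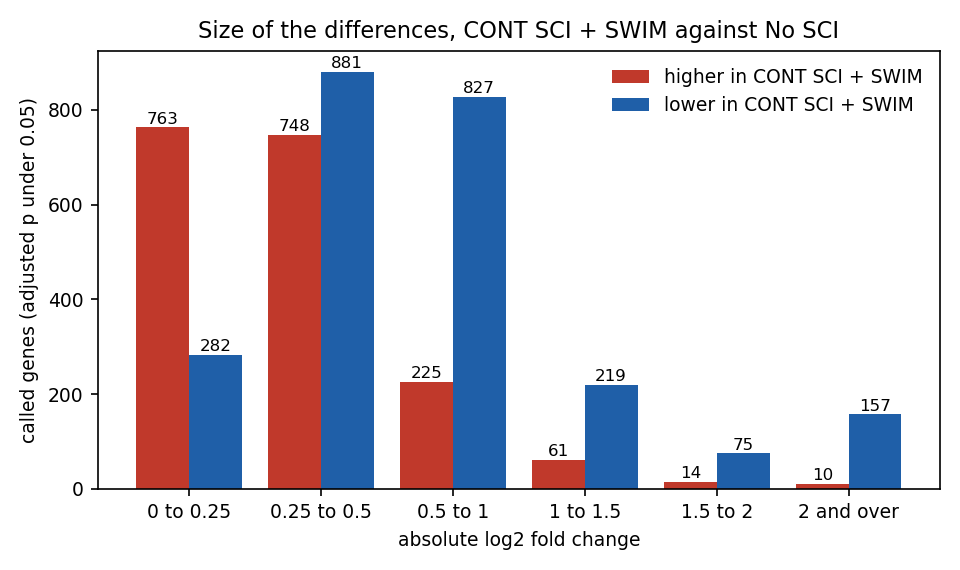
Bars count the called genes (adjusted p under 0.05) by the absolute log2 fold change between CONT SCI + SWIM and No SCI, red for genes higher and blue for genes lower in CONT SCI + SWIM. The smallest class holds 763 rises and 282 falls, and the class of 2 and over holds 10 rises and 157 falls.

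The precision of the comparison also bounds how far most genes could have moved. The median standard error of a log2 fold change was 0.10. For 9451 genes (62.3%) the 95% interval of the log2 fold change lay inside -0.5 to 0.5, and for 13300 genes (87.6%) it lay inside -1 to 1. Only 5 genes had an interval wholly above 1, and 250 had one wholly below -1. These intervals hold for each gene alone and carry no adjustment for the number of genes.

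The direction of the calls varied with the level of the gene. Among the 1710 genes with a mean below 1 CPM over the 9 samples, 14.7% were called, 82 higher and 169 lower. The share called grew to 33.8% among the 3762 genes between 30 and 100 CPM, with 614 higher and 656 lower. Among the 2140 genes at 100 CPM or more, 402 were higher and 318 lower, and 44.2% of the calls were falls, against 72.8% in the class from 3 to 10 CPM. The 2-fold differences were concentrated at low levels. They made up 10.4% of the genes below 1 CPM and 0.327% of those at 100 CPM or more, where 7 genes fell and 0 rose by that much. The median standard error went from 0.33 in the lowest to 0.07 in the highest class, so equal folds were called more readily at high levels.

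The 451 genes that were lower by at least 2-fold had a median of 3.79 CPM in No SCI (25th to 75th percentile 1.35 to 15.2) and of 1.14 CPM in CONT SCI + SWIM (0.268 to 4.89). Of them, 148 had a mean of at least 10 CPM in No SCI. Their summed level was 7333 to 8138 CPM in the No SCI samples and 2707 to 3181 CPM in the CONT SCI + SWIM samples. The 85 genes that were higher by at least 2-fold were rarer transcripts, with a median of 0.474 CPM in No SCI and 1.49 CPM in CONT SCI + SWIM, and their summed level was 125 to 186 CPM against 229 to 416 CPM. For 380 of the 451 genes the CONT SCI + SWIM samples lay wholly below No SCI, and for 42 of the 85 wholly above, where 13.3% and 10.7% of all tested genes did so. These levels and counts come from the samples that chose the genes and are given as a description, from which nothing is read.

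The extremes are given by identifier, as the 2 largest rises and 2 largest falls among the called genes whose log2 CPM averaged 1 or more and whose groups did not overlap. In all, 2890 genes met these conditions, 1247 higher and 1643 lower. The 12 largest rises among them had log2 fold changes of 1.04 to 1.61, and the 12 largest falls of -6.15 to -3.76. Only 13 of the 1247 rises reached 2-fold, against 237 of the 1643 falls.

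The largest fall among these genes was nearly a loss of the transcript. ENSRNOG00000055936 was at 56.1, 52.8, 69.6 and 60.0 CPM in the 4 No SCI samples. In CONT SCI + SWIM replicates 1 to 5 it was at 0.581, 0.740, 0.899, 0.961 and 0.972 CPM, from 12 to 29 reads per library. No CONT SCI + SWIM sample came near the No SCI range. The fitted difference in log2 was -6.15 ± 0.20 (standard error), with an edgeR adjusted p of 3.42e-15. The level was between 49.4 and 86.1 CPM in CONT SCI (median 59.6), and CONT SCI did not differ from No SCI beyond the spread between samples (log2 fold change 0.13, standard error 0.13, edgeR adjusted p = 0.642). In CONT SCI + SWW it was between 0.629 and 1.09 CPM and in TX SCI between 0.815 and 1.43 CPM.

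ENSRNOG00000004757 followed the same order of groups. It was at 23.9, 24.6, 22.0 and 26.9 CPM in No SCI, and at 0.426, 0.617, 0.499, 0.994 and 0.748 CPM in CONT SCI + SWIM. The groups were again far apart, by -5.16 on the log2 scale with a standard error of 0.26 (edgeR adjusted p = 4e-12). CONT SCI lay between 22.3 and 42.6 CPM, CONT SCI + SWW between 0.141 and 0.984 CPM and TX SCI between 0.911 and 1.46 CPM. For both genes the difference of CONT SCI + SWIM from CONT SCI + SWW missed the threshold (log2 fold changes 0.10 and 0.47, standard errors 0.32 and 0.41, edgeR adjusted p = 0.897 and 0.572). In both, the samples split by label into the groups given as 11.5 weeks (No SCI and CONT SCI) and the groups given as 8.5 or 13.5 weeks. The labels name no extraction or sequencing batch, and a batch shared along this division was not tested.

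Among the genes that met the same conditions on level and overlap, the largest rise, ENSRNOG00000029996, was modest beside these falls. It was at 1.71, 1.16, 1.42 and 2.00 CPM in No SCI and at 6.55, 4.25, 4.99, 3.71 and 4.56 CPM in CONT SCI + SWIM, where replicate 1 was the highest. The log2 fold change was 1.61, or 3.05-fold (standard error 0.21, edgeR adjusted p = 5.56e-06). CONT SCI, between 1.57 and 2.27 CPM, lay near No SCI, and CONT SCI + SWW (3.28 to 6.73 CPM) and TX SCI (3.39 to 4.85 CPM) overlapped with the swim-trained samples. The samples thus split along the same division of weeks by label as for the falls, and a shared batch was again not tested.

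ENSRNOG00000009542 had another pattern. It was at 2.35, 1.47, 2.6 and 1.45 CPM in No SCI and at 5.04, 5.98, 7.19, 3.31 and 5.05 CPM in CONT SCI + SWIM (log2 fold change 1.40, standard error 0.22, edgeR adjusted p = 6.47e-05). The CONT SCI samples, between 5.08 and 10.3 CPM, had the highest mean, and their log2 fold change from No SCI was 1.86 with a standard error of 0.21 (edgeR adjusted p = 5.51e-06). CONT SCI + SWIM overlapped with CONT SCI, and the difference between these groups missed the threshold (log2 fold change -0.46, standard error 0.18, edgeR adjusted p = 0.0591). CONT SCI + SWW lay between 2.16 and 2.69 CPM, below every CONT SCI + SWIM sample, and the log2 fold change between the exercise groups was 1.14 with a standard error of 0.21 (edgeR adjusted p = 0.00687). TX SCI was at 3.61 to 5.20 CPM. Counts alone do not tell whether any of these 4 genes has a near-identical copy that takes some of its reads.

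**Figure D3:**
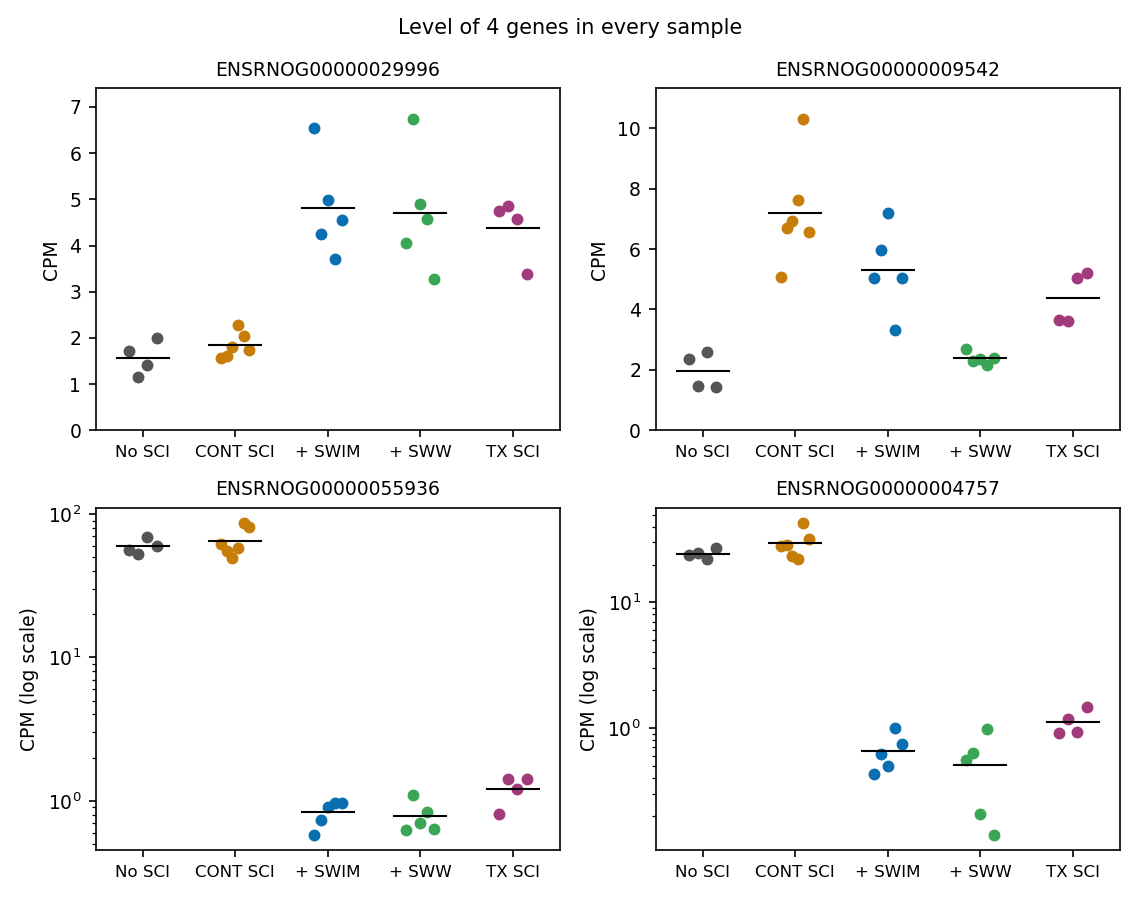
Each point is 1 sample, with the level of 1 of 4 genes in CPM (log scale in the lower panels) for No SCI, CONT SCI, CONT SCI + SWIM (+ SWIM), CONT SCI + SWW (+ SWW) and TX SCI, and the line is the group mean. The lower panels show ENSRNOG00000055936 and ENSRNOG00000004757 below 1.5 CPM in all + SWIM, + SWW and TX SCI samples and above 20 CPM in all No SCI and CONT SCI samples.

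Over all tested genes, swim-trained DRG lay farther from No SCI than unexercised contused DRG did. The distance between 2 samples was measured as the root mean square difference of their log2 CPM over the tested genes, and each sample was given its mean distance to the 4 No SCI samples. CONT SCI + SWIM replicates 1 to 5 were at 0.538, 0.587, 0.613, 0.517 and 0.542. CONT SCI samples were between 0.385 and 0.478, and the No SCI samples had mean distances of 0.321 to 0.369 to the other 3 of their group. The swim-trained group had a mean of 0.559 ± 0.039 (SD, n = 5) and the CONT SCI group one of 0.419 ± 0.035 (SD, n = 6), without overlap. The difference of 0.140 was larger than the spread between samples (two-sided exact permutation test, p = 0.00216, Benjamini-Hochberg adjusted p = 0.00648 over 3 distance tests). No smaller p can be had from groups of 5 and 6. Shallower libraries differ more by counting error alone, and the difference was 0.114 with all libraries thinned to the smallest (two-sided exact permutation test, p = 0.00433). All distances were taken to the same 4 No SCI rats, whose own variation is not part of these tests. CONT SCI shares the label of 11.5 weeks with No SCI, and CONT SCI + SWIM is labelled 13.5 weeks. Swimming and collection time therefore cannot be told apart in this difference.

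The swim-trained samples could not be told from the other exercised group by this distance. CONT SCI + SWW samples were between 0.483 and 0.620, with a mean of 0.553 ± 0.050 (SD, n = 5), and the difference between the exercised groups was 0.006 (exact permutation test, two-sided, p = 0.833 before and after adjustment). With TX SCI included in the scaling, TX SCI lay at 0.607 ± 0.017 (SD, n = 4) and CONT SCI + SWIM at 0.562 ± 0.039 (SD, n = 5), a difference that missed the threshold (two-sided exact permutation test, p = 0.0873, adjusted 0.131). Without CONT SCI + SWIM replicate 3, the farthest from No SCI in its own group, the difference from TX SCI was -0.059 (two-sided exact permutation test, p = 0.0286 before adjustment). Over the 500 most variable genes it was -0.243 with all samples (two-sided exact permutation test, p = 0.00794 before adjustment). TX SCI had the larger mean distance in all these settings, and whether the difference passed the threshold depended on the genes and samples used.

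**Figure D4:**
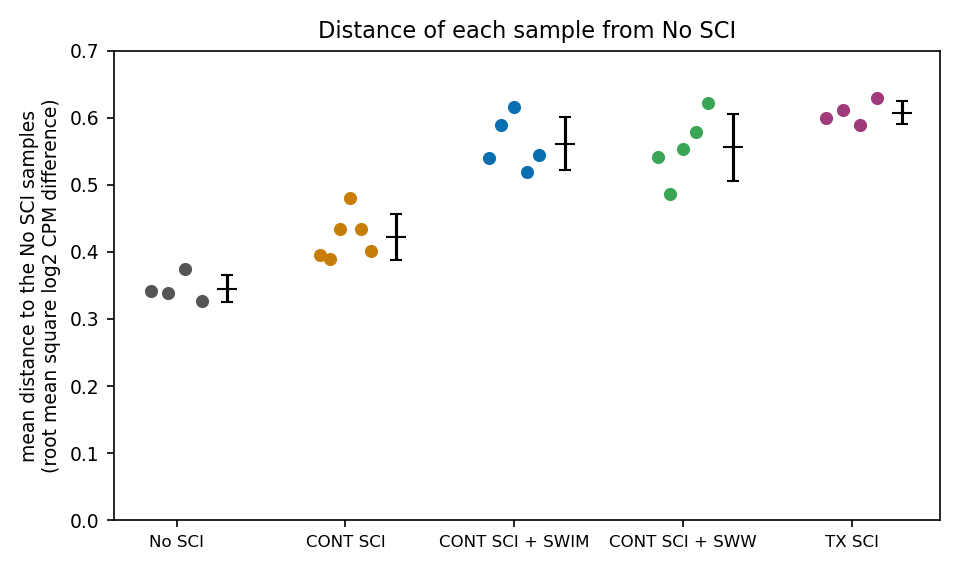
Each point is 1 sample and its mean distance to the No SCI samples, as the root mean square difference of log2 CPM with all 24 libraries scaled together, and the bars show the group mean ± SD. The CONT SCI + SWIM samples sit between 0.519 and 0.616, above every CONT SCI sample (0.389 to 0.481).

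By the mean distance to each group, every CONT SCI + SWIM sample was nearer to the other exercised group and to TX SCI than to No SCI or CONT SCI. Replicate 5, for example, was at 0.384 from its own group, 0.393 from CONT SCI + SWW, 0.445 from TX SCI, 0.539 from CONT SCI and 0.545 from No SCI. Replicates 2 to 5 were nearer to CONT SCI than to No SCI, and replicate 1 was nearer to No SCI (0.540) than to CONT SCI (0.553). Over all pairs, the mean distance was 0.383 within CONT SCI + SWIM (10 pairs) and 0.345 within No SCI (6 pairs). From CONT SCI + SWIM it was 0.406 to CONT SCI + SWW (25 pairs), 0.462 to TX SCI (20 pairs), 0.549 to CONT SCI (30 pairs) and 0.562 to No SCI (20 pairs). Replicate 4 alone was nearer to CONT SCI + SWW (0.381) than to the other samples of its own group (0.396). These orders are descriptions without a test.

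The distance from No SCI can be set beside its legs, contusion without exercise and then the step from there to the swim-trained state, fitted on the same 20 samples. The comparisons share samples, so their values are given side by side. Both groups of the first leg are labelled 11.5 weeks. In the second leg swimming and collection time (11.5 to 13.5 weeks) changed together and cannot be told apart. CONT SCI differed from No SCI at 1758 genes (11.6%), 1216 higher (8.01%) and 542 lower (3.57%). CONT SCI + SWIM differed from CONT SCI at 4880 genes (32.1%), 1912 higher (12.6%) and 2968 lower (19.6%) (edgeR's quasi-likelihood test, adjusted p under 0.05 for both). The median absolute log2 fold change over all tested genes was 0.17 for CONT SCI + SWIM against No SCI, 0.16 for CONT SCI + SWIM against CONT SCI and 0.10 for CONT SCI against No SCI, with median standard errors of 0.10, 0.09 and 0.09. Differences of at least 2-fold were called at 461 genes between CONT SCI + SWIM and CONT SCI (3.04%), 91 higher (0.600%) and 370 lower (2.44%). Between CONT SCI and No SCI they were called at 171 genes (1.13%), 100 higher (0.659%) and 71 lower (0.468%). With library totals in place of TMM scaling, CONT SCI + SWIM had 2821 genes higher and 2352 lower than CONT SCI. CONT SCI then had 974 higher and 709 lower than No SCI. The balance of higher and lower calls against CONT SCI therefore depended on the scaling. Without No SCI replicate 2, 1132 genes differed between CONT SCI and No SCI (724 higher and 408 lower). Without No SCI replicate 1 the rises numbered 800, and without CONT SCI replicate 5 and No SCI replicate 4, each left out alone, the falls numbered 379 and 354.

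CONT SCI + SWIM and CONT SCI + SWW, collected at the same time, differed at 454 genes (2.99%), 405 higher (2.67%) and 49 lower (0.323%) in CONT SCI + SWIM (edgeR's quasi-likelihood test, adjusted p under 0.05). Of them 5 (0.0329%) reached 2-fold, 4 higher (0.0264%) and 1 lower (0.00659%), and ENSRNOG00000009542 was among the 4. DESeq2 called 811 genes, 651 higher and 160 lower. The edgeR count rested on single libraries. It was 214 without CONT SCI + SWIM replicate 2 and 123 without replicate 3, and 187, 207 and 149 without CONT SCI + SWW replicates 2, 3 and 4. It was 811 without CONT SCI + SWW replicate 5. The 49 falls were still less stable in the same edgeR test. They numbered 22, 4, 1 and 123 without CONT SCI + SWIM replicates 1 to 4 and 46 without replicate 5, and 25, 7, 5, 0 and 114 without CONT SCI + SWW replicates 1 to 5.

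The genes with a 2-fold difference were then followed in groups outside the comparison that chose them. The CONT SCI and CONT SCI + SWW samples still took part in the filter and in the shared estimate of spread behind the calls. CONT SCI + SWW against CONT SCI shares no sample with CONT SCI + SWIM against No SCI. Like that comparison, it sets a group labelled 13.5 weeks against one labelled 11.5 weeks. A difference tied to collection time, or to a batch along this division, was not tested. Of the 451 genes lower by at least 2-fold, 364 (80.7%) were called lower in CONT SCI + SWW than in CONT SCI and 2 higher, where 24.3% of all tested genes were called lower. Their median log2 fold change there was -1.32, against 0.00 over all tested genes. Of the 85 genes higher by at least 2-fold, 47 (55.3%) were called higher and 14 lower, where 18.7% of all tested genes were called higher, with a median log2 fold change of 0.92. The genes lower by at least 2-fold in both comparisons numbered 287, which was 63.6% of the 451 and 59.5% of the 482 genes with such a fall in CONT SCI + SWW against CONT SCI (3.18% of the tested genes). For rises the overlap was 35 genes, 41.2% of the 85 and 24.3% of 144 (0.949% of the tested genes).

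TX SCI against CONT SCI also shares no sample with the swim comparison. There, 358 of the 451 genes (79.4%) were called lower and 6 higher, where 23.3% of 15247 tested genes were called lower, and 3 of the 451 were not tested. Of the 85 genes, 47 (55.3%) were called higher and 6 lower, where 19.8% of all tested genes were called higher. TX SCI rats did not exercise and were collected at 8.5 weeks, against 11.5 weeks for CONT SCI. Injury type and collection time changed together between these groups and cannot be told apart.

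Sample by sample, the median difference of the 451 genes from the No SCI mean was -1.63 to -1.32 on the log2 scale in CONT SCI + SWIM. Measured from the same No SCI mean, which took part in choosing the genes, it was -1.75 to -1.14 in CONT SCI + SWW, -1.38 to -1.20 in TX SCI and -0.29 to 0.06 in CONT SCI. By these medians too, the groups labelled 11.5 weeks stood apart from those labelled 8.5 or 13.5 weeks, and a shared batch was not tested. The 85 genes had a median difference of 0.71 to 1.48 in CONT SCI + SWIM, where replicate 4 was the lowest and replicate 5 was next at 1.09. No SCI replicate 3 stood at 0.29, and the remaining No SCI samples lay from -0.13 to -0.05. The 85 genes were at 0.66 to 1.09 in CONT SCI + SWW, at 1.05 to 1.30 in TX SCI and at 0.24 to 0.36 in CONT SCI.

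**Figure D5:**
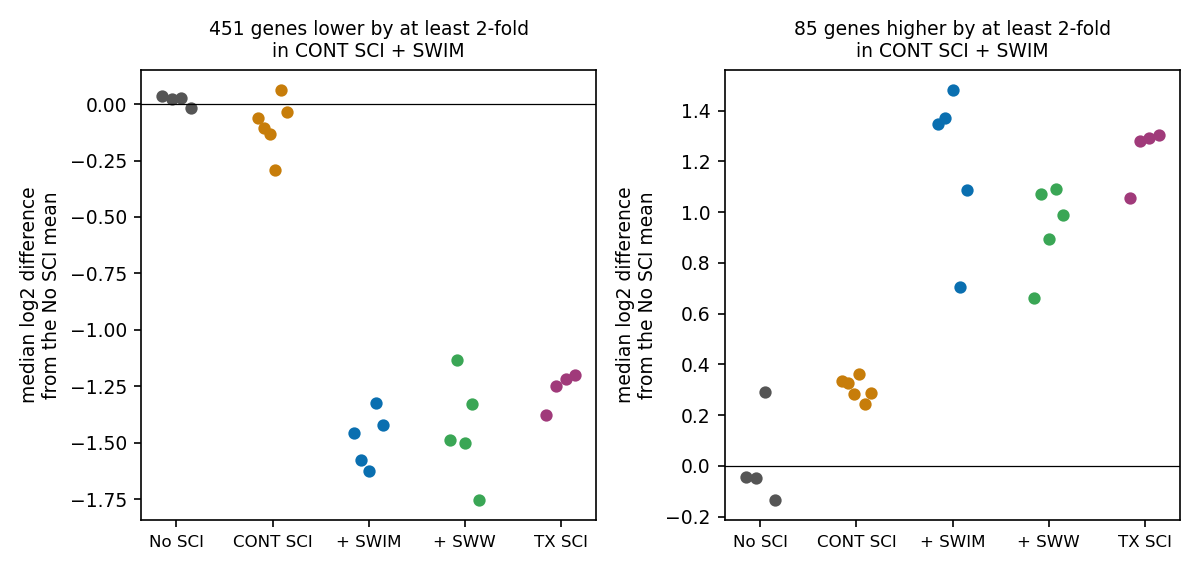
Each point is 1 sample, and the vertical axis is the median log2 difference from the No SCI mean over the 451 genes lower (left) or the 85 genes higher (right) by at least 2-fold in CONT SCI + SWIM than in No SCI. The left panel shows CONT SCI between -0.29 and 0.06 and the + SWIM, + SWW and TX SCI samples at -1.14 or below. No SCI and + SWIM are the groups whose difference chose the genes.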

How the data were processed

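Total RNA of pooled T11 to L4 DRG was enriched for polyA RNA, and single-end reads were sequenced on an Illumina NextSeq. The authors checked reads with FastQC 0.10.1, aligned them untrimmed to rn6 with STAR 2.6 and counted them per gene with HTSeq 0.10.0 by strand on Ensembl 93 annotation without mitochondrial genes. They deposited these counts as whole numbers, without normalization, for 24613 genes. Reads from several places or ambiguous between genes can be lost from such counts.

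Groups came from the sample titles. With R 4.3.3 and edgeR 4.0.16, 20 samples entered 1 fit of group means after filterByExpr (minimum count 10, minimum total 15) and TMM scaling. Genes were tested by glmQLFTest with Benjamini-Hochberg adjustment at 0.05, and standard errors were derived from the fold change and its F statistic (log2 fold change over the root of F). CPM of single samples were scaled by TMM over all 24 libraries. Distances used log2 CPM with a prior count of 2. On simulated counts for CONT SCI + SWIM against No SCI with 200 of 15064 genes changed by 1 on the log2 scale, 84.5% of them and 5 others were called. With a change of 0.5 in 200 of 15067 genes, 62.0% and 7 others were called, and with no change 0 of 15078 genes by edgeR, of which 706 had an unadjusted p under 0.05. Alternatives were RLE or no scaling, DESeq2 1.42.0, other filters, samples, thresholds and depths, the replicate number as a block and each replicate left out. The comparison, the 35 gene lists and the rule for named genes were chosen with earlier results of these data known. The 2-fold genes in groups outside their comparison, and the genes at 0, were examined after the data were seen. The annotation table at hand (GRCr8, 47357 genes) matched 0 of the 24613 identifiers, so the lists were not used here, and the rule reduced to 2 rises and 2 falls by identifier. Samples of the same group differed by far more than counting error in all 16 pairs (chi-square per gene 2.89 to 27.1), so each was counted as its own library. Which rats shared a cage was not used. Same-numbered CONT SCI + SWIM and No SCI samples did not deviate together (r from -0.242 to 0.223 over 4 pairs).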

Additional observations from a re-analysis of the deposited data

Results flagged for a closer look

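A test for a sample far from its group was run on 41 sets of values. Chance gives about 2.05 such samples and 1 was found. TX SCI replicate 1 had a median log2 difference from No SCI of 1.05 over the 85 genes higher by at least 2-fold in CONT SCI + SWIM, while the other TX SCI replicates had 1.28 to 1.30. The difference of CONT SCI + SWIM from No SCI departed from that of CONT SCI at 4880 genes and from that of CONT SCI + SWW at 454 genes (edgeR's quasi-likelihood test between the groups, adjusted p under 0.05).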

How the results depend on the processing

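The 4 genes given by identifier passed the threshold in the same direction in each of 19 alternatives (edgeR or DESeq2), with adjusted p of at most 0.00105. For CONT SCI + SWIM against No SCI, 3678 genes were called with the replicate number as a block, 4510 by DESeq2, 4304 with RLE, 4416 with library totals and 3770 after thinning. At an adjusted p under 0.01 the count was 2517, and it was 3033 against CONT SCI, 993 for CONT SCI against No SCI and 105 for CONT SCI + SWIM against CONT SCI + SWW, since fewer genes pass a stricter threshold. Among genes with a mean CPM of at least 1, where fewer genes were tested, 346 differed by at least 2-fold from No SCI. CONT SCI + SWIM against CONT SCI + SWW gave 251 genes with the replicate block and 811 by DESeq2, and the cause was not tested. The block changed no other count by over 1.5 times, and the numbers belong to different animals.

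With single replicates left out, the counts ranged from 3158 to 4620 for CONT SCI + SWIM against No SCI, 480 to 590 for 2-fold differences, 4036 to 5451 against CONT SCI, 1132 to 1716 for CONT SCI against No SCI and 123 to 811 against CONT SCI + SWW. The difference in distance ranged from 0.127 to 0.152 against CONT SCI, -0.011 to 0.022 against CONT SCI + SWW and -0.059 to -0.035 against TX SCI. Over the 500 most variable genes it was -0.068 against CONT SCI + SWW and -0.243 against TX SCI (two-sided exact permutation tests, p = 0.532 and 0.00794, the latter the smallest that 5 against 4 samples allow). Alternatives for the gene lists were not run, as the lists could not be used.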

Other observations

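A few rare transcripts had no read in any CONT SCI + SWIM library. Of the 24613 genes, 27 had 0 counts in all 5 CONT SCI + SWIM samples and at least 1 count in each No SCI sample, and 0 genes had the reverse pattern. Their mean counts in No SCI were 1 to 19.8 reads per library (median 2.75), and none of the 27 passed the filter on low counts, so they were not tested. With all libraries thinned to 16086670 counts, 20 genes had this pattern and 6 had the reverse.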
